A study of Sus scrofa with 2 samples.

Results

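The RNAs described here are small RNA sequences of 25 or 26 nt that begin with T (U in the RNA) in pig oocytes, the length class between the peaks at 23 to 24 nt and at 27 to 28 nt. They were chosen by length and first base alone, which gave 154395 of the 1166705 distinct sequences of the libraries, 98012 in the control library and 93374 in the Dicer knockdown (KD) library. The control library came from oocytes at metaphase II after 42 h of maturation in vitro. The Dicer KD library came from oocytes treated at the germinal vesicle stage with siRNA against Dicer and then matured for the same 42 h. There was 1 library per group, so every comparison is between these libraries and not between the conditions, and no test between groups was possible. The labels do not say how many oocytes or animals were pooled, nor what the control oocytes received. Their treatment field gives the Dicer knockdown for both samples, so the groups rest on the genotype label alone, and every ratio below depends on it. The level of Dicer was not measured by these libraries.

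Dicer is the ribonuclease that makes miRNAs from hairpins and siRNAs from double-stranded RNA, and its products in animals are mostly shorter than the sequences described here. PIWI-interacting RNAs (piRNAs) are longer, are made without Dicer from single-stranded precursors, and usually begin with U. Where piRNAs are made by the reciprocal cutting of transcripts from opposite strands, known as ping-pong, the responder RNA tends to carry A at base 10. The length of a piRNA depends on the PIWI protein that holds it and on trimming of its 3′ end, so RNAs with a single 5′ end and several 3′ ends are common. No genome or miRNA reference was used here, so none of the sequences was assigned to a class of RNA by alignment.

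The 4 most abundant sequences of each length, ranked by the reads of both libraries together, are shown because most of the results below can be read from them. The capital marks base 10, counted from 1 at the 5′ end.
26a: ttcccatggAgactttgctttgccct
26b: ttcctatggAgactttgctttgccct
26c: ttgttcatgGtttatcttctgaggct
26d: ttcctgtggAgactttgctttgccct
25a: ttctgtagcAacagttaaaacgacc
25b: tctgaaaaaAggacagaatgaactt
25c: tagaacctgAccatgctggcatcct
25d: ttcaaagtcTgtagagtcagtacct
Of these 8 sequences, 26a, 26b, 26d, 25a, 25b and 25c had A at base 10. All of the 26-nt sequences and 25c and 25d ended in CT. 26a had 46266 control and 52418 KD reads, and 26b had 39820 and 39466. 26c had 29084 and 31171 reads, and 26d had 20240 and 21809. These 4 sequences differed little between the libraries, with ratios of KD to control of 1.12, 0.979, 1.06 and 1.06. Among the 25-nt sequences, 25a had 28491 and 33709 reads, 25b 28537 and 33452, and 25c 32894 and 26383. 25d stood apart from the other 7, with 19368 control and 37678 KD reads, a ratio of 1.92 (interval 1.89 to 1.96).

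As a class, the T-starting sequences of 25 to 26 nt took the same share of both libraries within counting error. They held 1578619 of 11836160 control reads, or 13.3% (13.3 to 13.4), and 1597137 of 11982925 KD reads, also 13.3%. The ratio of the shares, KD over control, was 0.999 (0.997 to 1.002). At 25 nt the ratio was 1.002 (0.999 to 1.005) and at 26 nt 0.995 (0.992 to 0.999). The neighbouring T-starting classes differed in opposite directions around it, with a ratio of 0.937 (0.936 to 0.939) at 23 to 24 nt and of 1.07 (1.06 to 1.07) at 27 to 28 nt. Reads of 25 to 26 nt with another first base were higher in the KD library, with a ratio of 1.13 (1.13 to 1.14). All intervals are 95% intervals. They cover counting error only, with each read taken as independent. Reads that went through PCR and carry no molecular tag can repeat 1 molecule, so the intervals can be too narrow even for counting error. The intervals also leave out the unmeasured spread between replicate libraries.

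The class sat in a dip of the length distribution. T-starting reads made up 18.4% of the control library at 23 nt, 16.8% at 24 nt, 7.91% at 25 nt, 5.42% at 26 nt, 9.22% at 27 nt and 7.63% at 28 nt. The KD shares were 17.4%, 15.7%, 7.93%, 5.40%, 9.53% and 8.41%. The lowest of these 6 lengths was 26 nt in both libraries. T led the reads of 25 to 26 nt, as 82.4% of control and 80.5% of KD reads began with it, and 65.3% and 65.1% of the distinct sequences did.

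Base 10 was most often A. It was carried by 60.2% of the control reads of the class (60.2 to 60.3) and by 59.8% of the KD reads. By distinct sequence, where each counts once, the share was 41.5% and 42.6%. At 25 nt A stood at base 10 in 61.7% and 60.5% of reads, and at 26 nt in 58.1% and 58.7%. Reads of the same lengths that did not begin with T had A there in 33.02% and 30.5% of cases, and 31.9% and 31.7% by distinct sequence. T-starting reads of 23 to 24 nt had it in 58.4% and 59.2% of reads and 38.1% and 39.2% of distinct sequences, close to the members. T-starting reads of 27 to 28 nt reached 81.7% and 80.9% by reads but only 41.4% and 42.1% by distinct sequence. The single most abundant 27-nt sequence, which has A at base 10, held 33.5% of the control reads of the 27 to 28 nt class.

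Within the class the share with A at base 10 was higher among abundant sequences. In the control library it was 40.2% of sequences with a single read, 41.9% of those with 2 to 9 reads, 45.7% with 10 to 99, 53.3% with 100 to under 1000 and 62.5% of the 184 sequences with at least 1000. The same steps in the KD library ran 41.9%, 42.2%, 46.5%, 54.0% and 60.9%. The read-weighted value therefore rests on the abundant sequences. Without the 10 most abundant members it was 55.2% in the control library.

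Beyond bases 1 and 10, several positions departed from even base use by reads. T stood at base 2 in 45.9% of control and 47.7% of KD reads, and C at base 3 in 44.4% and 45.1%. The start TTC was on 29.8% and 31.1% of reads but on 12.5% and 13.0% of distinct sequences. G stood at base 8 in 41.5% and 42.4% of reads, at base 9 in 40.1% and 38.8%, and at base 11 in 38.4% and 39.3%. The run GGA at bases 8 to 10, which 26a, 26b and 26d carry, was in 18.9% of reads in each library and in 7.20% and 7.63% of distinct sequences. These preferences were stronger by reads than by distinct sequence, so they too rest in part on a few abundant sequences.

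By reads, the 3′ end was rich in T preceded by C. The last base was T in 48.9% and 50.01% of 25-nt reads and in 59.1% and 59.9% of 26-nt reads, where it was more frequent than A at base 10. By distinct sequence over both lengths, T and A were nearly equal as the last base, with T on 36.0% and 37.5% and A on 35.8% and 33.9%. At 26 nt in the control library A (36.02%) was above T (35.4%). The ending CT was on 25.6% of control and 26.5% of KD reads at 25 nt, and on 42.0% and 43.5% at 26 nt. Much of this at 26 nt came from 1 group of close relatives. Sequences with up to 3 differences from 26a held 22.05% and 22.9% of the 26-nt reads. In this group 99.7% of reads had C at base 25 and 98.2% had T at base 26. Of the distinct sequences of the class, 19.5% and 20.5% ended in CT. G was the rarest last base, on 5.91% and 6.12% of the reads of the class.

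Reads were spread over many sequences but held by few. Of the distinct sequences, 51.6% in the control library and 47.7% in the KD library had a single read, and together these held 3.20% and 2.79% of the reads of the class. The 10 most abundant sequences held 18.1% and 20.2%, and the 100 most abundant 48.0% and 49.3%. To reach 50% of the reads took 118 sequences in the control library and 107 in the KD library. The class was thus more even than its neighbours, since T-starting reads of 23 to 24 nt needed 38 and 35 sequences and those of 27 to 28 nt needed 2 and 3. The libraries shared 36991 members, which were 37.7% of the control and 39.6% of the KD sequences and held 94.1% and 94.3% of the reads.

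Nearly all reads of the class shared their 5′ end with reads of other lengths. Sequences were compared by their first 20 nt, and all sequences of 20 to 32 nt with the same first 20 nt are called a family. In the control library 87.2% of the reads shared this start with both a 23 to 24 nt and a 27 to 28 nt sequence, and in the KD library 86.7%. A shorter partner only was found for 7.68% and 7.60% of reads, a longer partner only for 0.960% and 1.28%, and neither for 4.20% and 4.40%. Adding these up, 94.8% and 94.3% of reads had a partner of 23 to 24 nt, and 88.1% and 88.0% one of 27 to 28 nt. Requiring at least 10 reads in the partner class lowered the control values to 87.5% and 73.8%.

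By distinct sequence the sharing was far lower and rose with abundance. In the control library 32.2% of the sequences had partners in both classes, 24.2% a shorter one only, 4.59% a longer one only and 39.0% neither. The KD shares were 31.8%, 23.4%, 5.03% and 39.7%. Among control sequences read once, 21.98% had partners on both sides, against 69.0% of those with 10 to 99 reads and 98.4% of those with at least 1000. Sequences with few reads also have fewer chances of a sequenced partner. Reads of the same lengths without a T start had partners in both classes for 71.6% and 73.9% of reads, and neither for 14.1% and 13.4%.

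By reads, most of the class was nested in its partners, base for base. Of the control reads with a shorter partner, 99.3% contained a 23 to 24 nt sequence as their exact start, and of the KD reads 99.2%. Of those with a longer partner, 94.2% and 95.3% were themselves the exact start of a 27 to 28 nt sequence. Both relations held for 82.0% of all control reads and 82.5% of all KD reads of the class. By distinct sequence the relations were less complete. A shorter sequence was the exact start of 91.4% and 89.9% of the members with a shorter partner, but only 56.6% and 56.7% of those with a longer partner were its exact start. Both relations held for 16.9% and 16.5% of all members. Where a family had at least 100 reads at 25 nt, 1 sequence held a median of 94.99% of them in the control library and 95.5% in the KD library, and at 26 nt 95.3% and 95.4%. Within 1 length, such families thus consisted mostly of a single sequence.

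Each family was assigned by its reads of 23 to 24, 25 to 26 and 27 to 28 nt only, whatever its reads at other lengths. By this rule the families with their most reads at 25 to 26 nt supplied most of the class. Such families gave 61.4% of its control and 62.5% of its KD reads. Families led by 23 to 24 nt reads gave 30.2% and 27.4%, and families led by 27 to 28 nt reads 8.45% and 10.1%. When each family was assigned once, from the reads of both libraries together, the ratios of KD to control were 0.977 (0.973 to 0.981) for members of families led by shorter reads, 1.01 (1.01 to 1.01) for those led by 25 to 26 nt and 1.003 (0.995 to 1.01) for those led by longer reads. The larger gaps between the percentages above include families that were assigned to different classes in the 2 libraries. An example is the family of tgaactagaTctccagctgtggcatt, which in the control library had 29373 reads at 23 to 24 nt against 20536 at 27 to 28 nt, and in the KD library 17792 against 20452. Its reads at 30 nt, 24853 in the control and 18909 in the KD library, were not part of this comparison. In the control library 30 nt was its most abundant single length.

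Counted as families, a fall from the shorter to the longer class was the most common shape, and a maximum in the middle was the next. Among the 3396 families with at least 100 reads at 23 to 28 nt in the control library, 1638 fell from the shorter to the longer class and 950 peaked at 25 to 26 nt. Another 234 rose with length and 574 had a dip at 25 to 26 nt between more abundant shorter and longer forms. The KD library had 1484 falling, 971 peaking, 269 rising and 584 dipping families of 3308. The peaking families were 27.97% and 29.4% of these families and held 59.0% and 60.2% of their reads at 25 to 26 nt. The middle class took a median of 19.4% of a family's reads of 23 to 28 nt in the control library, with quartiles of 5.50% and 50.4%, and of 20.1% in the KD library, with quartiles of 5.95% and 53.1%.

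The named sequences show these shapes. The family of 26c lay mostly at 1 length, with 29517 of its control reads at 26 nt against 1660 at 25 nt and 1613 at 27 nt. It had 55 control reads at 24 nt, 652 at 28 nt and 832 at 29 nt. The families of 26a and 26b had the same form on the shorter side, with 3236 and 2716 control reads at 24 nt, 5941 and 5381 at 25 nt and 46668 and 40885 at 26 nt, and then only 51 and 73 at 27 nt. The family of 26d, in contrast, was level over 3 lengths, with 19106 control reads at 24 nt, 22821 at 25 nt and 22031 at 26 nt. The KD counts were 19843, 22521 and 23746. These 25-nt reads were not a single form. The exact start of 26d had 15789 control and 15326 KD reads at 25 nt. Another 25-nt form, which ends in CCA and is not a start of 26d, had 6558 and 6677. 25d had a maximum at 25 nt with 19510 reads, beside 4364 at 24 nt and 2956 at 22 nt, in the control library. All 3 were higher in the KD library, at 37956, 6732 and 4439.

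25a and 25b were side forms of more abundant RNAs. The longer form that 25a belongs to and the shorter form that 25b belongs to are shown here with the shared 20 nt in capitals.
27-nt form of the 25a family: TTCTGTAGCAACAGTTAAAAcgaccct
24-nt form of the 25b family: TCTGAAAAAAGGACAGAATGaact
The 27-nt form had 668874 control and 683090 KD reads, and it is 25a with 2 further bases. 25a had 28491 and 33709 reads, and the 26-nt form between them, ttctgtagcAacagttaaaacgaccc, 20365 and 20591. Thus in this family the 26-nt form was below the 25-nt form, although it is nearer to the main length. The 24-nt form of the 25b family had 64356 and 88512 reads, 25b itself 28537 and 33452, and the 26-nt form 2997 and 3962. The ratio of KD to control was 1.16 (1.14 to 1.18) for 25b.

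The family of tgctttggtAttaggattggtattc had 2 separate maxima with the class between them. In the control library it had 118968 reads at 24 nt, 19409 at 25 nt, 1583 at 26 nt, 1422 at 27 nt and 45355 at 28 nt. The KD library gave 131213, 24924, 1933, 1835 and 56357. The longer and the shorter form were thus both more abundant than the forms of 25 and 26 nt, in each library.

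The ending of a member differed with whether it was the main form of its family. Among members with at least 100 control reads, 581 were the most abundant form of their family, and 315 of them (54.2%) ended in CT. Of the 796 that were not the most abundant form, 81 (10.2%) ended in CT. The KD counts were 322 of 579 (55.6%) and 91 of 752 (12.1%). By reads, CT ended 66.0% and 65.5% of the main forms and 4.87% and 5.68% of the others. Without the 10 most abundant members these read shares were 52.9% and 51.0% of the main forms, and 5.59% and 6.69% of the others. Further close relatives of 26a, described below, were still among the main forms.

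The share of main forms with this ending varied with their length. Over T-starting families with a member and at least 100 reads at 23 to 28 nt, the most abundant form ended in CT in 56.2% of the 329 control families whose main form had 26 nt, and in 43.9% of the 538 at 25 nt. At 24 nt it did in 35.9%, at 23 nt in 29.3%, at 27 nt in 45.4% and at 28 nt in 31.5%. In the KD library the shares from 23 to 28 nt were 29.7%, 35.9%, 43.8%, 56.4%, 48.3% and 28.9%. In both libraries the share was highest at 26 nt. From 23 to 28 nt, A at base 10 was also most frequent in main forms of 26 nt, at 53.5% in the control and 51.9% in the KD library. Between main forms and other members with at least 100 reads, however, it did not follow the CT ending. It was present in 49.2% and 49.1% of these main forms and in 58.4% and 59.4% of the other members.

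For members that are the exact start of a longer sequence, the next base after the 3′ end was taken from the longer one. These members held 89.5% and 89.4% of the reads of the class. The next base was A for 36.3% and 35.6% of these reads, T for 28.2% and 30.2%, G for 18.8% and 17.6% and C for 16.8% and 16.6%. Longer sequences of a family did not always carry the same next base. After tttggcaatGgtagaactcacactg, a 26-nt form with 5565 control and 4355 KD reads had A. A 28-nt form with 55 and 35 reads had G there. Whether the next base is the one that follows in the precursor was not tested.

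Several of the abundant 26-nt members were close relatives of each other. 26b differed from 26a by C5T, in which 26a has the first base, the number is the position from the 5′ end and 26b has the last base. 26d differed from 26a by C5T and A6G. A further 26-nt member, ttcccttggAgactttgctttgccct, differed from 26a by A6T and had 5113 control and 5228 KD reads. Another, ttcctatggAgaccttgctctgccct, differed from 26b by T14C and T20C and had 5718 and 5121 reads. With up to 3 differences from 26a there were 741 distinct 26-nt members, of which 69 had at least 100 reads in both libraries together. They held 22.05% of the control and 22.9% of the KD reads of the 26-nt members, with a ratio of 1.04 (1.03 to 1.04). Over the reads of this group the bases varied most at position 5, where 59.3% of reads did not have the C of 26a, and at position 6, where 20.8% did not have its A. At position 10, 0.125% of reads did not have A, but the group was chosen by closeness to 26a, which has A there. Position 10 was not the least variable, since positions 21 and 24 had another base in 0.0783% and 0.0335% of reads. The counts of such relatives are given per exact sequence, and whether they come from separate genomic copies was not tested.

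A member could also overlap another from a shifted 5′ end. The 26-nt sequence tattagaacCtgaccatgctggcatc, with 16197 and 16047 reads, begins 3 nt upstream of 25c and covers most of it. Over the 1200 control families with at least 100 reads at 25 to 26 nt, 885 had some reads that start 1 nt further upstream, but the median was 0.997% of the reads at the family's own start. At 1 nt downstream 1003 families had reads, with a median of 1.61%. In the KD library the medians were 0.824% and 1.59% over 1219 families. Reads at these shifted starts were thus few at the median family. Summed over families the reads 1 nt upstream came to 36.9% of those at the family start for the control and to 36.2% for KD, of which a single family gave 32.4% and 34.0%.

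Members without any partner were rare among abundant sequences. The most abundant with a shorter partner only, a longer partner only or neither, in both libraries, are shown, again with base 10 in capitals.
shorter only: ttcctatggAgacttgctttgccct
longer only: tcttttatgGagtgttacttgagcct
neither: tctgtagcaAcagttaaaatgaccct
The first had 1215 control and 1010 KD reads, beside 44 and 33 reads of 23 to 24 nt. It has the sequence of 26b, which had 39820 and 39466 reads, but lacks 1 T of the run TTT after GAGAC. The missing base lies within the start by which families were formed, so this sequence fell outside the family of 26b. The source of this form was not tested. The sequence with a longer partner only had 166 and 192 reads and that with neither had 114 and 216 reads. The last begins 1 nt downstream of the start of the 25a family. Counted over both libraries together, 6 of the 2376 members with at least 100 reads had neither partner and 24 had a longer partner only.

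Some of the members carry sequences known from other RNAs, as background from general knowledge and not from a reference alignment. The 25-nt sequence tttggcaatGgtagaactcacactg, with 13758 control and 14663 KD reads, is the mature form of miR-182 with 1 more base at its 3′ end. Its family was led by 24 nt, with 115318 and 103217 reads, and had 15131 and 15858 at 25 nt. The 25-nt sequence tctacggccAtaccaccctgaacgc, with 6770 and 6720 reads, is the start of 5S ribosomal RNA without its first base. The most abundant 22-nt sequence, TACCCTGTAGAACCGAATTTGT, which is miR-10b, had a family with 320699 and 325820 reads at 22 nt but only 794 and 705 at 25 nt and 29 and 14 at 26 nt. The members are thus not all piRNA-like, and the split between classes of RNA was not measured.

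Few individual members differed 2-fold between the libraries. A difference was counted from a ratio of 2 upwards or of 0.5 downwards, for sequences whose reads summed over the libraries reached 100. Of the 2376 members with that many reads, 93 (3.91%) were higher and 96 (4.04%) lower in the KD library. Over all 13658 sequences of any length and first base with at least 100 reads, 5.71% were higher and 5.68% lower, so the share of the members lay below that of all sequences in both directions. The median log2 ratio of the members was -0.05, with quartiles of -0.36 and 0.28, and that of all sequences was -0.06, with quartiles of -0.40 and 0.30. With 1 library per group, how often replicate libraries would differ by this much is not known, and these counts are not calls of change.

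The same counts at other read minimums gave the same order. At 20 reads, 781 of 8679 members (8.999%) were higher and 902 (10.4%) lower, against 10.3% and 11.8% of all sequences. At 1000 reads, 6 of 343 members (1.75%) were higher and 6 lower, against 4.7% and 3.24% of all sequences. T-starting sequences of 23 to 24 nt had 121 higher and 266 lower of 4074 with at least 100 reads, and those of 27 to 28 nt 89 higher and 55 lower of 1311. Their medians were -0.14 and 0.12 on the log2 scale, so the members lay between them.

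The members with the largest ratios among those with at least 1000 reads are shown because they depart most from the level class share, with base 10 in capitals.
higher in Dicer KD, a: tctaggctgTaggcttgtagcccct
higher in Dicer KD, b: tctgcaagtGgctatttggcctcact
higher in Dicer KD, c: ttctgtagcAacagttaaaatgaccc
higher in Dicer KD, d: ttaggatgtAaaccttttagggacc
lower in Dicer KD, a: tggcacatgAtagacaatgagaagat
lower in Dicer KD, b: ttcatgataAaccttggctagagct
lower in Dicer KD, c: tccagtgttGgcactgctgtggccct
lower in Dicer KD, d: ttcatcagcTgcttgaggacgtctga
The first of the higher sequences had 731 control and 1870 KD reads, a ratio of 2.53 (2.32 to 2.76). The others had 409 and 1025 reads (2.48), 296 and 730 (2.44), and 1404 and 3349 (2.36). The lowest ratio belonged to the first of the lower sequences, with 932 and 233 reads and a ratio of 0.247 (0.213 to 0.285). The second had 12834 and 4305 reads, a ratio of 0.331 (0.320 to 0.343), and was the most abundant of them. The remaining lower sequences had 1759 and 692 reads (0.389), and 4687 and 2204 (0.464).

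In these families the other lengths moved to different degrees. The family of the most abundant lower sequence had 7970 control and 2641 KD reads at 24 nt and 13884 and 4946 at 25 nt, but 1159 and 1080 at 28 nt and 2959 and 2323 at 29 nt. The family of the first lower sequence went from 955 to 248 reads at 26 nt and from 542 to 219 at 29 nt, and had 135 and 131 at 30 nt. In the family of the first higher sequence the 25-nt reads were 735 and 1897 and the 26-nt reads 109 and 293, while the 22-nt reads were 228 and 206. The third higher sequence shares its first 20 nt with 25a. It differs from the 26-nt form of the 25a family given above, with 20365 and 20591 reads, by a single base. That base, directly after the shared 20 nt, is T in place of C. The 25a family as a whole had 53000 and 60042 reads at 25 to 26 nt. The source of this variant was not tested.

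Only 2 members with at least 100 reads were missing from a library altogether, and both were missing from the KD library. They are named here after their values were seen.
absent from Dicer KD, a: ttctacagtGgctgtggctcgaccc
absent from Dicer KD, b: tctacagtgGctgtggctcgacccc
They had 266 and 162 control reads. Against a floor of 3 reads in the KD library they were 89.8-fold and 54.7-fold lower there, and the 95% intervals of the ratios reach down to 72.5-fold and 43.96-fold. The 2 sequences overlap, with starts that lie 1 nt apart, so they are not independent. Other lengths of their families were low as well, with 554 control and 20 KD reads of 23 to 24 nt for the first, and 784 and 1 for the second. No member with at least 100 reads was missing from the control library.

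Most ratios by feature lay near 1. Members with A at base 10 had a ratio of 0.991 (0.989 to 0.994) by summed reads and the others 1.01 (1.01 to 1.01). By last base the ratio was 0.934 for A, 1.02 for C, 1.03 for G and 1.02 for T. Members with partners in both neighbouring classes had a ratio of 0.999 (0.997 to 1.001), those with a shorter partner only 0.996 (0.987 to 1.01), those with a longer partner only 1.04 (1.01 to 1.06) and those with neither 1.002 (0.990 to 1.01). Ratios spread more widely over GC content. Members with 60 to 70% GC had a ratio of 0.828 (0.817 to 0.839), and those with 70 to 80% GC one of 0.809 (0.706 to 0.925). The 67 members with at least 80% GC had 65 control and 331 KD reads, a ratio of 5.03 (3.85 to 6.67), and only 1 of them reached 100 reads. Reads of the same lengths and GC content with another first base had a ratio of 4.58 (4.30 to 4.89). At 60 to 70% and 70 to 80% GC, where the members were lower in the KD library, reads with another first base were higher. Their ratios there were 1.05 and 1.57. Members with 40 to 50% GC, which held 50.02% and 50.7% of the reads, had a ratio of 1.01 (1.01 to 1.02).

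Few members had a match on the opposite strand. A member was counted when its library also held a sequence that contains the reverse complement of its first 20 nt. This was so for 2049 control members (2.09%) with 2.37% of the reads, and for 2095 KD members (2.24%) with 2.57% of the reads. The matches on the opposite strand summed to 92681 control and 78924 KD reads, against 37429 and 40984 reads of these members. A read was counted once for each start it matched, so these sums can count a read more than once. By the share of reads with a match, T-starting reads of 23 to 24 nt gave 7.50% and 2.56% of reads, and those of 27 to 28 nt 0.302% and 0.478%. By this share, which requires an exact match, the class lay between its neighbours in the control library and close to the shorter class in the KD library.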

How the data were processed

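Total RNA from oocytes was made into small RNA libraries with ligated adapters and a PCR step, per the labels' protocols. For each library the authors deposited a table with the length, the raw read count and the sequence of each distinct read of 18 to 44 nt. The submitters' processing notes name Bowtie2, with no version. Trimming settings and the genome build are not given in the sources used here. Members and lists were chosen with earlier results of these data known. Shares have exact (Clopper-Pearson) and ratios exact conditional 95% intervals. Median log2 ratios had 0.5 reads added to each count, and a count of 0 was set to 3 reads for folds. Ties for the leading class of a family went to 25 to 26 nt. Named sequences were the 4 most abundant of each length, the 4 largest ratios in each direction with at least 1000 reads, the 2 most abundant of each sharing class, and other lengths of abundant families. Of these, the most abundant of each rarer sharing class is printed, and other sequences were added as examples. No genome or miRNA table was used here, so marker miRNAs of other cell types were not counted. The count rules were tested on simulated counts. Alternatives covered the reads that shares are relative to, rare sequences, length, the shared start and read minimums. The tools were scipy 1.17.1, pandas 2.3.3 and numpy 2.4.6 under Python 3.11.15.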

Additional observations from a re-analysis of the deposited data

How the results depend on the processing

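The log2 ratio of the class share was -0.001 and stayed within 0.01 of 0 in every alternative. It changed sign without the 10 most abundant sequences of the libraries (0.0024) and with 25 nt only (0.0031), and was -0.0069 with 26 nt only and -0.0068 for distinct sequences. The counts of members at least 2-fold higher and lower were 781 and 902 at 20 reads and 6 and 6 at 1000 reads, against 93 and 96. In the control library, the share of reads with a 23 to 24 nt partner was 95.1% with a shared start of 18 nt, 94.5% with 22 nt, 87.5% with at least 10 partner reads and 56.4% for distinct sequences. For a 27 to 28 nt partner these values were 88.6%, 87.7%, 73.8% and 36.8%, and 85.7% without sequences of a single read. The share of reads in families led by 27 to 28 nt was 8.54% without single reads, 7.34% at 25 nt, 10.1% at 26 nt, 8.55% with a shared start of 18 nt and 6.54% without the 10 most abundant members. A at base 10 was on 60.9% of reads without single reads, 61.7% at 25 nt, 58.1% at 26 nt, 41.5% of distinct sequences and 55.2% of reads without the 10 most abundant members. The cause of these shifts was not tested. No paired analysis was possible because each group had 1 library, and no library could be left out. Depth limits the rare members: 3 reads, the floor used for a count of 0, are 0.253 RPM (reads scaled to the library total) for the control and 0.2504 RPM for KD.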

Other observations

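Rare members often lay close to an abundant one. Of the 50580 control members with a single read, 37.0% had a sequence of the same length with 1 mismatch and at least as many reads in that library, and 9.65% had such a neighbour with at least 100 times as many reads. In the KD library 41.9% and 13.1% of 44535 did. Among members with at least 100 reads, 22.7% of 1377 in the control library and 22.3% of 1331 in the KD library had a neighbour with at least as many reads. For these the difference was at the last base in 41.3% and 40.4% of cases. The part of sequencing errors in these neighbours was not tested.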
